A study of Rattus norvegicus with 8 samples.

Results

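Isolated promoter runs were defined by their position on the array alone. A run is a set of at least 3 array probes on an autosome, separated by gaps of at most 500 bp, and it stands here for a promoter region because the arrays tile promoters and the files name no genes. A run was called isolated when the nearest other run before it and the nearest after it on the same chromosome were both more than 300 kb away. This rule kept 597 of 24558 autosomal runs, with 7917 probes, of which 7910 were tested. The other 23961 autosomal runs served for comparison. No measured value enters this rule, although the rule itself was chosen with earlier results of these data known.

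Cytosine methylation in mammals sits mainly at CpG dinucleotides, and promoters with many CpGs are usually kept unmethylated while promoters with few are often methylated. Genes are spread unevenly along rat chromosomes, and long gene-poor stretches separate gene-dense blocks. Such stretches often have a low GC content, and some of the genes within them have important roles in brain development. In MeDIP an antibody against 5-methylcytosine pulls down methylated fragments, so the ratio of bound over input DNA depends on both the methylation and the number of CpGs of a fragment, and it is a relative measure rather than a percentage of methylation.

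The data came from the prefrontal cortex of 8 male Sprague-Dawley rats at PND62, 4 Ctrl and 4 PNS. PNS rats were the offspring of dams restrained in a cylinder under bright light on several occasions each day over the last gestational week, and the dams of Ctrl rats were left alone. Each litter gave 1 male, so the rats of a group are separate litters, and females were not studied. The tissue was a dissected region with all its cell types, and a change in the mix of cells cannot be told apart from a change of methylation within a cell type. Bound DNA (Cy5) and input DNA (Cy3) of each rat were hybridized to 1 array. Each of 4 slides held a Ctrl rat at array position 1 and a PNS rat at position 2, so that array position and group cannot be told apart. The level of a run is the mean of its probes' log2 ratios of bound over input after quantile normalization, and a difference is the PNS minus the Ctrl mean of such levels. The arrays of C180 and C182 (Ctrl) and C141 (PNS) stood apart, with an SD of their log2 ratios before normalization of 0.712, 0.672 and 0.622, against 0.994 to 1.23 on the other 5. Signals in the bound channel exceeded background clearly at 43.6 to 67.1% of all spots. In isolated runs this share was lower in the PNS than in the Ctrl array on slides 2, 3 and 4. It was 43.0, 29.6 and 35.5% in PNS against 49.9, 38.5 and 38.2% in Ctrl. On slide 1 it was 50.5 against 50.2%. The SD of the log2 ratios was higher in the PNS array on slides 2, 3 and 4 and lower on slide 1. Bound brightness and array spread were thus not balanced between the groups.

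The isolated runs lay on all 20 autosomes. Chromosome 2 held the most, with 81, and chromosome 12 the fewest, with 5. As a share of a chromosome's runs they were most common on chromosome 15 (5.2%) and least common on chromosome 10 (0.758%). The median distance to the nearer neighbour was 429 kb, and 22 of the 597 had no other run within 1 Mb. The number of other runs within 1 Mb had a median of 5, against 30 for the other runs. Of the isolated runs, 61 had a stretch of fewer than 3 probes within 300 kb, which the rule did not count as a run. Just inside the limit was chr4:178658717-178658904, 300089 bp from its nearer neighbour, with a level of -0.23 and a difference of -0.13. Just outside it was chr2:66842832-66843733, at 299504 bp, with a level of -0.14 and a difference of 0.084. Coordinates are those of the rat build rn4.

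In size, the isolated runs were close to the rest. They had a median of 14 probes over 1101 bp, against 13 probes over 1124 bp. They differed more in what the probes were like. Mean probe length was 57.6 nt at the median in isolated runs and 53.9 nt in the other runs, and 279 isolated runs (46.7%) fell in the quintile of runs with the longest probes. On tiling arrays, probe length is commonly varied to keep melting temperatures alike, so long probes tend to be AT-rich. The GC content itself was not measured, since the probe sequences were not used here. Input signals were lower too, with a median of 8.25 on the log2 scale against 9.30. The median isolated run had 51.7% of its input spots and 40.3% of its bound spots well above background, and the median of the other runs was 75 and 62.5%. Of the 7910 probes, 3332 (42.1%) were not well above background in the bound channel on any of the 8 arrays, against 25.7% of the probes of other runs, and for 2784 (35.2%, against 20.6%) this held in both channels. The ratio of such a probe is a ratio of weak signals rather than a measured enrichment.

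The levels of the isolated runs ranged from -1.44 to 2.44, with a median of -0.16 and quartiles of -0.39 and 0.047. The other runs had a median of -0.18 and quartiles of -0.44 and 0.14. The isolated runs were therefore less spread out, and their SD over runs was the lower of the pair on 8 of 8 arrays. A level above 1 was found in 11 isolated runs (1.84%), against 4.3% of the other runs. When the other runs were divided into quintiles by level, 15.7% of the isolated runs fell in the lowest quintile and 13.7% in the highest, whereas 25.8% fell in the middle one. Runs in the quintile with the longest probes were also narrower among the others, with an SD of 0.295, close to the 0.282 of the isolated runs of that quintile.

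Whether the isolated runs lay above or below the rest in level differed from rat to rat. The median of isolated runs minus the median of other runs was -0.090 in C180, -0.079 in C182, 0.017 in C184 and 0.021 in C185, the Ctrl rats. In the PNS rats it was -0.070 in C141, 0.094 in C142, 0.10 in C144 and 0.082 in C145. The 3 rats with values below 0 were the 3 whose arrays had the narrow log2 ratios. The mean was 0.0092 (SD 0.080, n = 8), which was within the spread between rats (exact two-sided permutation of signs, p = 0.703, smallest possible p 0.0078). The sign of the mean also depended on the processing. Among probes whose input was well above background on all 8 arrays, 419 isolated runs remained and lay below the other runs by a mean of -0.083, with the smallest p the design allows (exact permutation of signs, p = 0.0078). In the authors' own normalized values, from background-subtracted medians, the mean was -0.15 with the same p, exact by the same permutation. Without the 3 arrays with narrow log2 ratios it was 0.079, above 0 in each of the other 5 rats (exact permutation of signs, p = 0.0625, the smallest 5 rats allow). No direction is therefore given for the level of isolated against other runs.

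**Figure D1:**
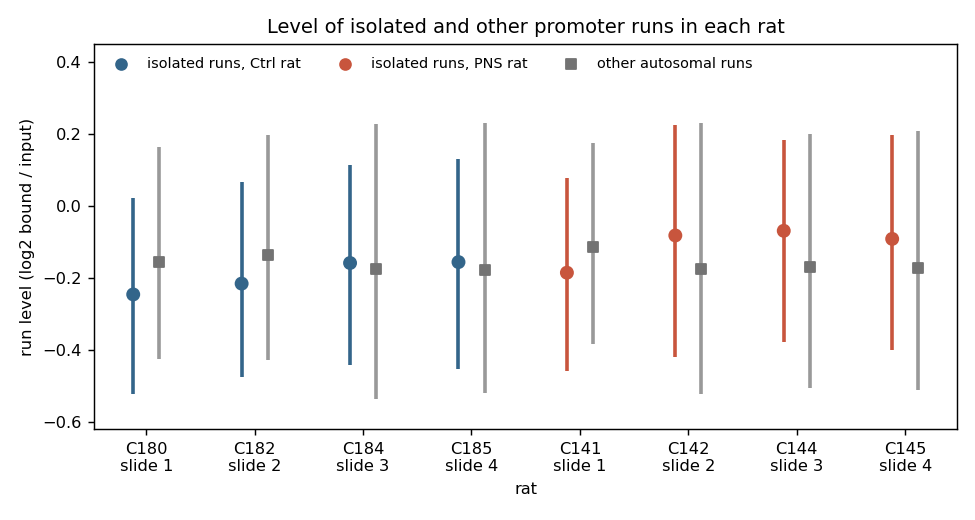
Run level (log2 bound over input) in each of the 8 rats. Coloured points are medians of the 597 isolated runs, grey squares medians of the 23961 other autosomal runs, and vertical lines the quartiles over runs. The isolated runs lie below the others in C180, C182 and C141 and above them in the other 5 rats, by at most 0.10.

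Distance itself showed no steady relation with level. The median level was -0.19 for runs within 10 kb of another run, -0.16 for those 100 to 200 kb from the nearer one, -0.15 at 300 to 500 kb and -0.19 beyond 500 kb. Over the 597 isolated runs the Pearson correlation of level with the distance to the nearer run was -0.064 (Spearman -0.052), as a description over runs that share the same 8 arrays. Probe length rose with distance over the same bins, from a median of 53.5 nt within 10 kb to 57.9 nt beyond 500 kb. Neighbouring runs resembled each other when close. The correlation of levels between consecutive runs was 0.39 over 2255 pairs up to 2 kb apart, 0.045 over 3922 pairs 100 to 300 kb apart, and 0.11 over 1986 pairs more than 300 kb apart. For the PNS minus Ctrl difference it was 0.072, 0.058 and 0.027 in the same bins, and higher in between, at 0.144 over 3045 pairs 2 to 10 kb apart and 0.118 over 9130 pairs 10 to 50 kb apart. Consecutive runs also resembled each other in mean probe length, with correlations of 0.47, 0.25 and 0.25.

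Along a run, the outer and the inner probes differed in either direction, with small medians. The mean of the outer probes minus that of the inner ones had a median of -0.0064 in isolated runs and 0.048 in the other runs. The quartiles were -0.24 and 0.24 in isolated runs and -0.19 and 0.28 in the others. In the quintile with the longest probes these medians were -0.036 and 0.0025.

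The 5 isolated runs with the highest levels carried strong bound signals. The highest was chr9:5898231-5898813, a run of 3 probes over 583 bp, 1785 kb after the run before it. Its level was 1.62, 1.96, 2.54 and 3.02 in the Ctrl rats (values of single rats follow the slides, so C180, C182, C184, C185 here), and 2.27, 2.97, 2.32 and 2.81 in the PNS rats (C141, C142, C144, C145). The groups overlapped, and the difference of 0.31 (SE 0.29) was within the spread between rats (exact permutation test, p = 0.429). Its probes were uneven, since the probe at one end had Ctrl and PNS means of 0.91 and 1.54 with no input spot well above background, and the probe at the other end 3.32 and 3.38 with the input well above background on 8 of 8 arrays.

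The second highest was chr19:38759276-38760517, with 17 probes and a level of 1.33, 1.89, 2.18 and 2.32 in Ctrl rats and 1.22, 2.06, 1.89 and 2.08 in PNS rats. Its neighbours lay 1299 kb before and 475.4 kb after it. The next were chr7:111932104-111933154 with a mean level of 1.5 over the 8 rats, chr8:63920162-63921373 with 1.17 and chr8:121259769-121260976 with 1.16. In these 4 runs at least 90.4% of input spots were well above background, and their mean probe lengths were 49.4 to 51.6 nt, shorter than the median isolated run. Their PNS minus Ctrl differences lay between -0.26 and 0.011 and were within the spread between rats. The promoter rule of the study's methods, described below, did call chr8:63920162-63921373, at a rank-sum FDR of 0.181. Its difference was -0.26 with all rats and -0.027 without C141. In each of the 5 highest runs C141 was the lowest of the PNS rats, at 0.43 in chr7:111932104-111933154, 0.33 in chr8:63920162-63921373 and 0.43 in chr8:121259769-121260976.

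The 5 lowest isolated runs also had bright inputs, with 84.4 to 100% of input spots well above background. The lowest was chr13:74967446-74967702, with 6 probes over 257 bp and 302.4 kb before the next run. Its level was -0.31, -1.09, -1.87 and -2.09 in Ctrl rats and -1.06, -1.80, -1.30 and -1.96 in PNS rats, and the groups overlapped over most of their range. Each of its 6 probes had a mean below 0 in both groups. The others were chr6:47434155-47435431 at a mean of -1.07, and chr2:132888994-132890428, chr6:119568363-119569601 and chr5:92081234-92081973, each at -1.03. The PNS minus Ctrl differences of the 5 runs were -0.36 to 0.14, all within the spread between rats. The arrays with narrow log2 ratios lay nearest to 0 in some of these runs. In chr2:132888994-132890428 the levels of C180 and C182 were -0.19 and -0.19, that of C141 was -0.46, and the other 5 rats lay between -1.67 and -1.21.

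**Figure D2:**
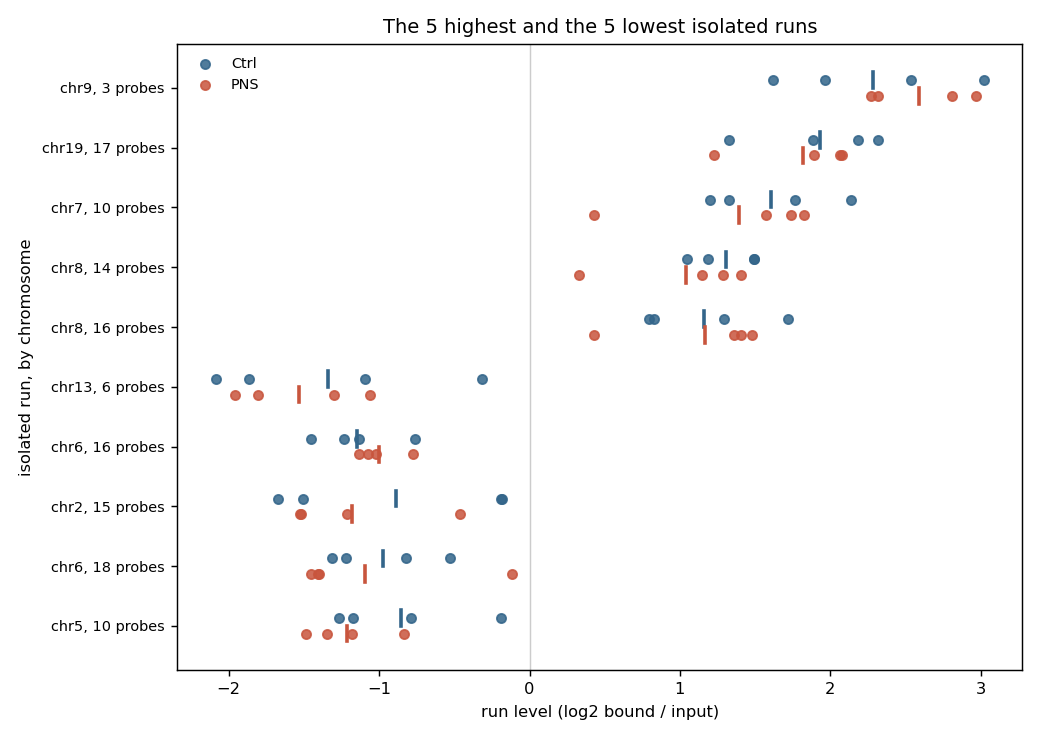
Levels (log2 bound over input) of the 5 isolated runs with the highest and the 5 with the lowest mean level. Each point is 1 rat, blue for Ctrl and red for PNS, and a short vertical line marks the group mean. In each of the 10 runs the Ctrl and PNS rats overlap.

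The most remote runs were unlike each other. The run farthest from its nearer neighbour was chr18:20431640-20432838, with 21 probes and with 1749 kb and 1950 kb to the runs before and after it. Its level was -0.63, -1.10, -0.58 and -0.72 in Ctrl rats and -0.32, -0.74, -0.53 and -0.45 in PNS rats, with 16 of 21 probes higher in PNS. Of the PNS rats, 3 lay above every Ctrl rat and C142 did not, and the difference of 0.25 (SE 0.16) had an exact permutation p of 0.143. Its size depended on the processing. Restricted to probes with bright input it was 0.65 (unadjusted p = 0.012 in limma, adjusted p 1.0), and with median centring 0.043.

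The other remote runs gave a range of levels. The second was chr5:55240244-55241169, at a mean of 0.055, but none of its 15 probes was well above background in the bound channel on any array, so this level describes weak signals only. chr6:119568363-119569601 was also among the 5 lowest runs, and was well measured, with 97.2% of input spots well above background. chr5:86215992-86217203 had a mean of -0.69 and a difference of 0.21 (SE 0.14), with 13 of 17 probes higher in PNS. chr2:130066286-130066553, with 3 probes, had a mean of -0.39 and rats between -1.29 and 0.48, and its next run after it, 2822 kb away, was chr2:132888994-132890428, one of the 5 lowest. Of these 5 remote runs, 2 had a higher and 3 a lower mean in PNS, and none had an unadjusted p of at most 0.05 in the fit of all 8 rats. Without C141, the difference of chr6:119568363-119569601 went from -0.12 to -0.46 (unadjusted p = 0.039, adjusted p = 0.441 in limma).

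With respect to prenatal stress, the isolated runs as a group were shifted towards higher values in PNS rats. Of the 597 runs, 392 had a higher mean level in PNS and 205 a lower one, so that 65.7% were higher, against 49.0% of the other autosomal runs. The median difference was 0.073 in isolated runs and -0.0045 in the others. All 4 slides showed the PNS rat above the Ctrl rat in 85 isolated runs (14.2%, against 7.83% of the other runs) and below it in 23 (3.85%, against 7.01%). The runs share the same 8 arrays, so these counts are a description, and the test was made over rats. The level gap, the median of isolated minus other runs in a rat, was 0.084 larger in PNS than in Ctrl rats, from -0.033 (SD 0.060, n = 4) to 0.051 (SD 0.082, n = 4). An exact two-sided permutation test over the 70 assignments of rats to groups gave p = 0.171, with 0.029 as the smallest possible p. On the 4 slides the PNS rat exceeded the Ctrl rat by 0.020, 0.17, 0.083 and 0.061. Without C141, the PNS rat with the narrow log2 ratios, the shift was 0.13 and reached the smallest p that 4 Ctrl and 3 PNS rats allow (exact permutation test, p = 0.029). That removal left the narrow arrays of C180 and C182 in Ctrl, so that array spread and group cannot be told apart there. Without all 3 narrow arrays the shift was 0.088 (exact permutation test, p = 0.1, the smallest the remaining rats allow). The shift over all 8 rats was thus within what the spread between rats allows.

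The shift moved together with the brightness of the spots. In the dimmest quintile of runs by input signal, which held 275 of the isolated runs, the median difference was 0.14 in isolated and 0.12 in other runs, and 84.4% of isolated and 78.1% of other runs were higher in PNS. In the brightest quintile, which held 48 isolated runs, the medians were -0.096 and -0.10, and 27.1 and 28.1% were higher. The middle quintiles lay between these values, in order of brightness for the other runs. Quintiles of probe length gave the mirror image, from -0.044 for isolated and -0.056 for other runs with the shortest probes to 0.13 and 0.11 for those with the longest.

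Compared within quintiles of input signal, the level gap between PNS and Ctrl shrank from 0.084 to 0.013, and within quintiles of probe length to 0.026. With a loess fit of the ratio on intensity within each array it was 0.033, and in spots with bright input only 0.016. In the 275 isolated runs of the dimmest quintile the median level was -0.35 to -0.13 in Ctrl and -0.19 to -0.0051 in PNS rats, and in the other 322 it was -0.19 to -0.14 and -0.22 to -0.16. The ranges of the groups overlapped in both. Slide by slide, the PNS rat lay above the Ctrl rat on all 4 slides in the dimmest quintile, by 0.162, 0.196, 0.121 and 0.104. In the other quintiles together the differences of the isolated runs were -0.032, 0.015, -0.030 and -0.0044. The other autosomal runs of the dimmest quintile were also higher in the PNS rat on all 4 slides. Their mean difference was 0.124, against 0.146 in the isolated runs. The part of probe length or brightness in the differences of single runs was not tested.

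**Figure D3:**
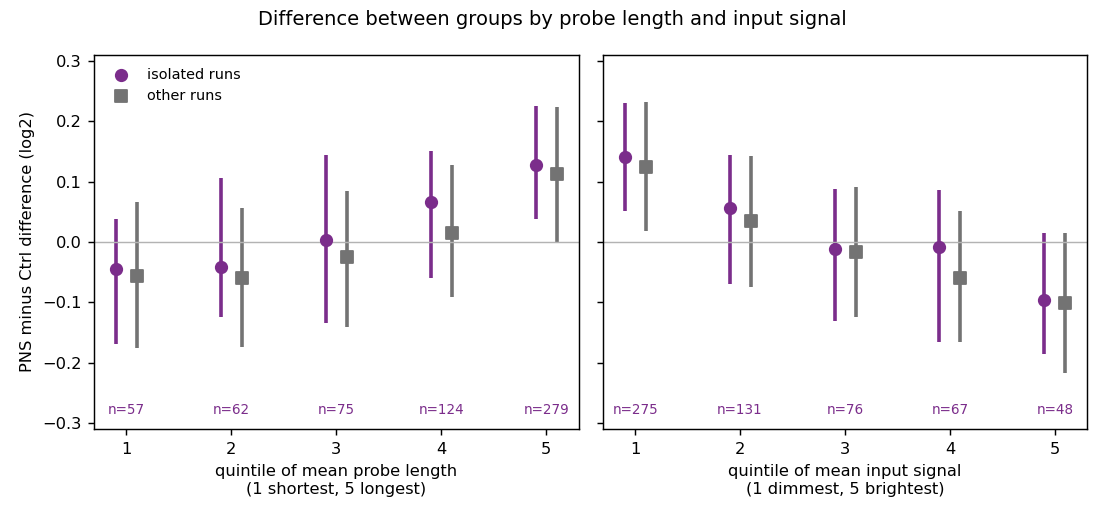
PNS minus Ctrl difference (log2) of runs in quintiles of mean probe length (left) and of mean input signal (right), set over all autosomal runs. Points are medians of isolated (purple) or other (grey) runs, lines their quartiles, and n the number of isolated runs. Both kinds of run follow the same trend, from 0.14 and 0.12 in the dimmest to -0.096 and -0.10 in the brightest quintile, and 279 of the 597 isolated runs sit in the quintile with the longest probes and 275 in the dimmest.

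Run by run, no difference passed correction. In the limma fit of run means over 25615 runs, 0 isolated runs and 0 runs in all (0%) had a Benjamini-Hochberg adjusted p of at most 0.2, and the smallest adjusted p was 1.0. At an unadjusted p of at most 0.05, 31 isolated runs (5.19%) were found, against 4.03% of all runs. With loess the isolated share was the lower one, at 3.02 against 3.26%. Of the 31, 27 were higher in PNS (4.52%, against 2.24% of all runs) and 4 lower (0.67%, against 1.8%). The 4 Ctrl and the 4 PNS rats did not overlap in 27 isolated runs. PNS was higher in 21 of them (3.52%, against 1.83%) and lower in 6 (1.01%, against 1.4%). The excess of runs with higher values thus went with a deficit of runs with lower values, and 22 of the 31 lay in the quintile of runs with the longest probes, where 7.89% of isolated and 5.78% of other runs had such a p.

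The promoter rule of the study's methods, a rank-sum test of the probes' t-statistics at an FDR of 0.2 with at least 1 probe past the first stage, called 75 isolated runs (12.6%, against 10.7% of all runs). The order of these shares turned with loess (5.36 against 6.87%) and with normexp (1.01 against 3.28%). Of the 75, the mean difference was above 0 in 56 (9.38%, against 5.09%) and below 0 in 19 (3.18%, against 5.56%). This rule treats the probes of a run as independent, so its FDR is too low where they are not, and 24 of the 75 also had a p of at most 0.05 in run means. The overlap of both rules among all runs is not given here. In the first stage, limited to probes that differed by at least 0.5 at an unadjusted limma p no larger than 0.05, 412 of the 7910 probes passed (5.21%, against 4.86% of all probes). Of these, 261 were higher (3.3%, against 2.61%) and 151 lower (1.91%, against 2.25%) in PNS. They lay in 270 of the 597 runs, and the matching share of other runs is not given here, so this count is a description only.

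The 10 isolated runs with the smallest p were 8 with higher and 2 with lower values in PNS. Each was also called by the promoter rule, which uses the same arrays, and each had an adjusted p of 1.0 in limma. The rank-sum FDR ranged from 0.037 in chr1:8688531-8689707 to 0.193 in chr13:6066495-6067265, close to the limit of 0.2. The smallest limma p belonged to chr19:34410611-34410808, with a rank-sum FDR of 0.179. It is a run of 3 probes over 198 bp, 639.2 kb after the run before it and 471.6 kb before the run after it. Its level was -1.47, -1.40, -1.65 and -0.79 in Ctrl and -0.41, -0.29, -0.054 and -0.38 in PNS rats. Every PNS rat lay above every Ctrl rat, and the difference was 1.04 (SE 0.19, unadjusted p = 0.00018 in limma and 0.029 in an exact permutation test, the smallest it allows). It came from 2 of the 3 probes, with means of -1.41 and -1.43 in Ctrl and 0.096 and 0.081 in PNS, and the input of these probes was never well above background, on any array. The third probe, with the input well above background on 8 of 8 arrays, had means of -1.15 (SD 0.66) and -1.03 (SD 0.97). The well measured probe of this run thus differed by less than the spread between rats. With normexp background correction, which damps weak signals, the difference of the run was 0.25.

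The second was chr6:144836100-144837043, with 15 probes over 944 bp. Its level was -0.71, -0.71, -0.56 and -0.70 in Ctrl rats and -0.37, -0.22, -0.21 and -0.27 in PNS rats, again without overlap. The spread within groups was small (SD 0.073 and 0.072), and the difference of 0.41 (SE 0.12) had an unadjusted p of 0.0067 in limma. Along the run, 11 of 15 probes were higher in PNS and 4 lower. The largest differences were at probes 233, 375 and 442 bp after the centre, where input spots were well above background on 3, 0 and 0 of 8 arrays. Restricted to probes with bright input on all arrays, the difference turned to -0.17 (unadjusted p = 0.443).

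**Figure D4:**
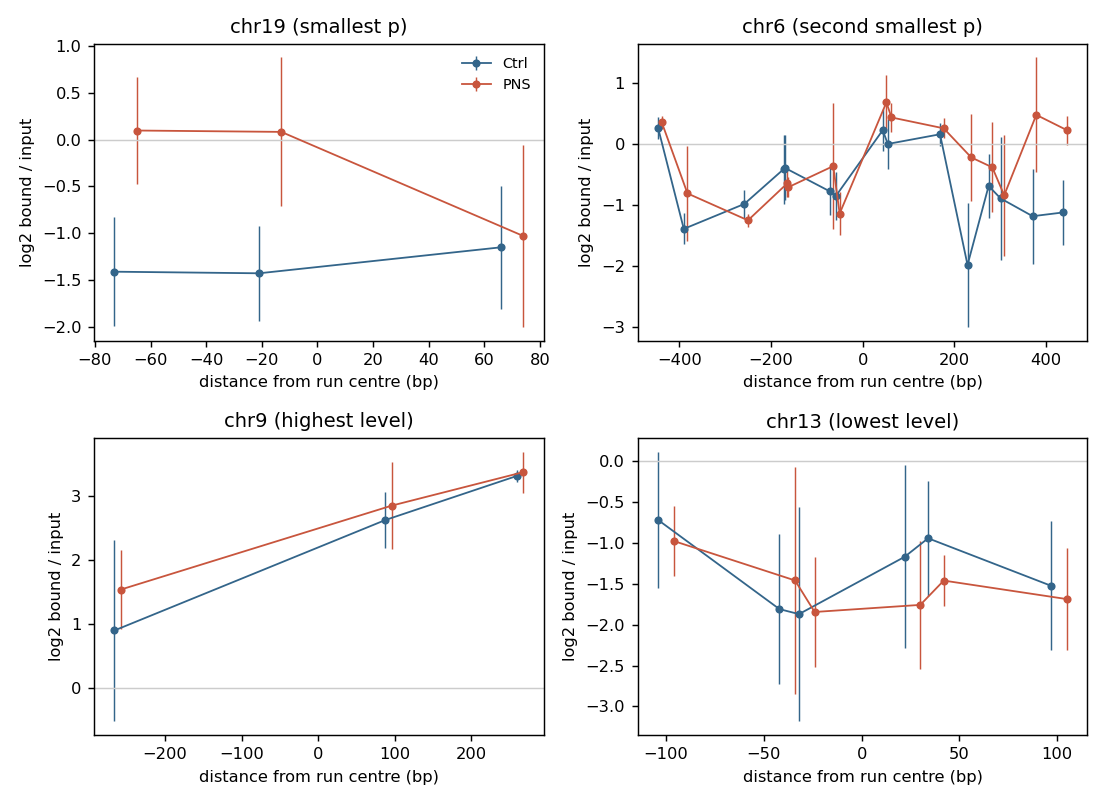
Probe values (log2 bound over input, mean and SD over 4 rats per group) along the 2 isolated runs with the smallest p and those with the highest and the lowest level, by distance from the run centre in bp. In the chr19 run the groups separate at 2 probes and meet at the third, at -1.15 and -1.03, and in the chr6 run the largest gaps lie to the right of the centre.

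The third, chr15:52691355-52691562, was the only one of the 10 with every spot well above background, at 100% in both channels. It has 3 probes over 208 bp, 1411 kb after the run before it, and only 2 other runs within 1 Mb. Its level was 0.22, 0.97, 0.77 and 1.01 in Ctrl rats and 1.14, 1.34, 1.47 and 1.5 in PNS rats. Every PNS rat lay above every Ctrl rat, all 3 probes were higher in PNS, and the PNS rat was the higher one on each slide, by 0.92, 0.37, 0.70 and 0.49. The difference was 0.62 (SE 0.19, unadjusted p = 0.0067 in limma and 0.029 in the exact permutation test). With each rat left out in turn it stayed between 0.46 and 0.74, with an unadjusted limma p of at most 0.022. Under the other scalings, corrections and filters it was 0.43 to 0.84. All these values come from the rats whose p singled out this run, so they are not a second test of it. Its adjusted limma p was 0.9997 with all rats, and at least 0.406 with 1 rat left out. The Ctrl rat C180 had the lowest level, and the difference of 0.46 is the one without this rat.

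The 2 runs with lower values in PNS were chr16:69843148-69843260 and chr13:6066495-6067265. The first has 3 probes over 113 bp and 41 other runs within 1 Mb, the most of any isolated run. Its level was 0.77, 0.036, 0.73 and 0.56 in Ctrl rats and -0.51, -0.073, 0.13 and -0.063 in PNS rats. The ranges met, since C144 lay above C182, and the difference was -0.65 (SE 0.20, unadjusted p = 0.0069 in limma and 0.057 in the exact permutation test). In chr13:6066495-6067265, with 10 probes, Ctrl rats had 0.040, 0.24, -0.25 and -0.22 and PNS rats -0.50, -0.36, -0.41 and -0.66, without overlap, at a difference of -0.44 (SE 0.15, unadjusted p = 0.015 in limma and 0.029 in the exact permutation test). The shares of input spots well above background were 41.7 and 38.8%.

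Of the other 5 runs with higher values in PNS, chr5:41590225-41591475 was the longest by probe number. Its 18 probes gave -0.73, -0.56, -0.37 and -0.57 in Ctrl rats and -0.13, -0.19, -0.19 and -0.24 in PNS rats, a difference of 0.37 (SE 0.13) with 13 of 18 probes higher. The groups did not overlap. chr14:53589528-53590543, 2102 kb after its neighbour, gave -0.52, -0.27, -0.096 and -0.42 against 0.079, 0.042, -0.027 and 0.16, also without overlap.

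chr1:18734966-18736246 gave -0.35, -0.48, -0.16 and -0.043 in Ctrl rats against 0.0079, 0.17, 0.25 and 0.13 in PNS rats, again without overlap. In chr1:8688531-8689707 the difference was 0.41 with 11 of 12 probes higher, and in chr2:247601852-247602461 it was 0.51 with 7 of 8 higher, and in both 1 Ctrl rat lay among the PNS rats. The shares of input spots well above background in these 5 runs ran from 14.1% in chr2:247601852-247602461 to 72.9% in chr1:8688531-8689707. Under the other scalings, corrections and filters that gave a value, the 10 runs kept the sign of their difference except chr6:144836100-144837043, but their sizes and p-values did not hold as well. An unadjusted limma p of at most 0.05 was kept by 4 of the 10 with normexp, by 5 in the authors' normalized values, by 8 with loess, by 8 with median centring and by 2 of the 5 that gave a value with bright input spots only. With normexp the difference of chr13:6066495-6067265 was -0.054, that of chr14:53589528-53590543 0.067, that of chr1:18734966-18736246 0.072 and that of chr2:247601852-247602461 0.099.

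**Figure D5:**
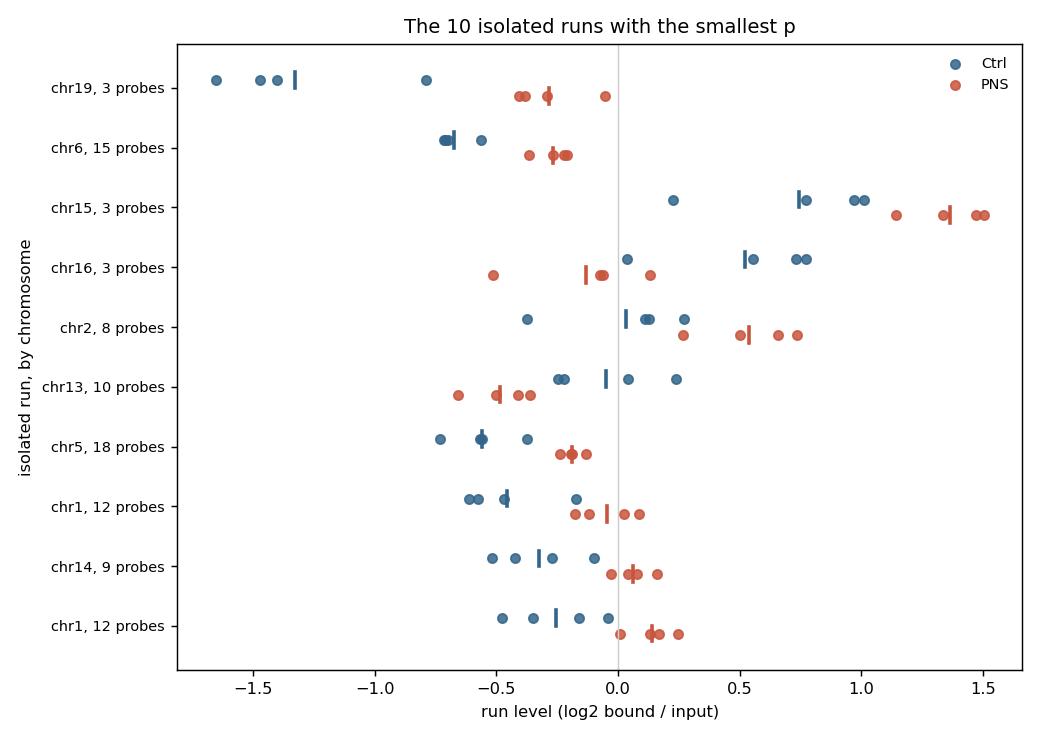
Levels (log2 bound over input) of the 10 isolated runs with the smallest unadjusted p, from the smallest at the top. Each point is 1 rat, blue for Ctrl and red for PNS, and a short vertical line marks the group mean. The PNS mean is higher in 8 of the 10 runs, and the largest separation is that of the chr19 run, at -1.33 in Ctrl and -0.28 in PNS.

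Calls differed with the number of probes per run in isolated and other runs alike. Of the 68 isolated runs of 3 to 5 probes, 8 had an unadjusted p of at most 0.05 (11.8%, against 8.1% of other runs of this size), and of the 117 with 18 or more probes 3 did (2.56%, against 2.22%). The promoter rule called 6 and 17 of these (8.82 and 14.5%), against 4.36 and 18.1% of other runs of those sizes. The median difference was above 0 in each size class, from 0.054 in runs of 10 to 13 probes to 0.11 in those of 18 or more.

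Leaving out the 3 arrays with narrow log2 ratios raised the number of runs past this p. With C184 and C185 against C142, C144 and C145, 87 isolated runs had an unadjusted p of at most 0.05. Their share of 14.6% was below the 15.8% of all runs in the same fit. Here 26 isolated runs (4.36%), 17 higher and 9 lower in PNS, had an adjusted p of at most 0.2 in limma, against 1480 of 25615 runs (5.78%). These calls rest on 2 Ctrl rats, and the arrays were left out after the data had been seen.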

How the data were processed

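DNA of the prefrontal cortex from 8 male rats, 4 Ctrl and 4 PNS, was sonicated, immunoprecipitated with an antibody against 5-methylcytosine, amplified over the whole genome and hybridized to custom Agilent tiling arrays by the authors. Whole-genome amplification can change the relative abundance of fragments, and the input was amplified in the same way. The deposited scanner files hold each spot's intensity in both channels, background-corrected and dye-scaled within the array by Feature Extraction 10.7.3.1, but not normalized between arrays, and the software's log10 ratio. A table of log2 ratios that the authors normalized was also deposited. Its values had the same order as log2 of background-subtracted median bound over input on each array and 1 distribution in all columns, with medians of -0.54 to -0.53.

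From 420288 spots, 5503 control spots and 403 spots flagged as non-uniform were left out. Log2 ratios of the processed signals were computed, repeated probes averaged, and 375110 probes quantile-normalized. Runs were built from the probe positions given for rn4. Differences of probes and of run means were tested in limma (version 3.58.1 under R 4.3.3, lmFit then eBayes, no block), with Benjamini-Hochberg adjustment over all probes or all 25615 runs, the X chromosome included. Level gaps were tested over rats by exact permutation. The Bayesian deconvolution of the study's methods was not run. Runs named are the 10 with the smallest p, the 5 highest, the 5 lowest, the 5 most remote and, of the 24 called by both rules, the 10 with the smallest p, which are the same 10. The members and lists were chosen with earlier results of these data known. Gene lists were not counted, because the files name no genes and the reference tables used here are of another build, and no sequences were read. Arrays have no read depth, and 4 arrays per group limit the precision. The scripts were tested on simulated data with known shifts, in which probes were independent and all arrays had the same spread. That simulation does not show how the rules behave with dependent probes or with arrays of unequal spread. Slides pair a Ctrl with a PNS array according to the file labels; residuals of arrays on the same slide had correlations of 0.33, -0.37, 0.36 and 0.38, with a mean of -0.040 between slides. Alternatives covered scaling, background correction, filters, run and distance limits, the slide as a block and rats left out.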

Additional observations from a re-analysis of the deposited data

Results flagged for a closer look

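Over 56 groups of 4 rats examined, 5 had 1 rat far from the other 3. About 2.8 would be expected by chance if the groups were independent. They share the same arrays, and most are levels of runs picked for their p, level or distance. The count can therefore not be judged against 2.8. In PNS rats, the level gap of isolated minus other runs was -0.070 in C141 and between 0.082 and 0.10 in the other 3, and its log2 ratios had an SD of 0.622, while those of the other PNS rats had 1.16 to 1.23. The same rat stood apart in 2 runs. In chr8:121259769-121260976, one of the 5 highest, C141 had a level of 0.43 and the other PNS rats 1.36 to 1.48. In chr6:119568363-119569601, one of the 5 lowest and of the 5 most remote, C141 had -0.12 and the others -1.46 to -1.40. Among Ctrl rats, C184 had -0.56 in chr6:144836100-144837043, against -0.71 to -0.70 in the other 3, a gap that is large only because those 3 lay so close together.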

How the results depend on the processing

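The isolated minus other level gap, 0.0092 in the main processing, changed sign with the software's log ratio (-0.013), bright input spots only (-0.083), gaps of at most 250 bp (-0.0047), a distance of 500 kb (-0.014), means over runs (-0.041), normexp (-0.011) and the authors' table (-0.15). With 1 rat left out it was -0.0036 to 0.026, below 0 without C142 (-0.0034), C144 (-0.0036) or C145 (-0.00036). The cause was not tested. The PNS minus Ctrl shift of this gap was positive under all 30 settings, from 0.013 to 0.13, and 0.066 to 0.13 with 1 rat left out. Only without C141 did its exact permutation p fall to at most 0.05 (0.029), with the narrow arrays of C180 and C182 still in Ctrl. As a replicate block, the slide gave the same shift of 0.084 at an exact permutation p of 0.125, the smallest 4 pairs allow.

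The 31 isolated runs with an unadjusted p of at most 0.05 became 18 with loess and 13 with bright input. The latter were 3.1%, against 2.54% of all runs. They were 54 at 200 kb (4.84 against 4.03%) and 11 at 500 kb (5.31 against 4.03%). Without the 3 narrow arrays they were 87 (14.6 against 15.8%), and without slide 1 they were 68 (11.4 against 10.4%). With 1 rat left out they were 14 (without C144, 2.35 against 2.14%) to 80 (without C141). In 4 of 26 settings the isolated share was the lower one, with loess (3.02 against 3.26%), normexp (3.52 against 4.2%), without the narrow arrays and without C180. Without C141 it was 13.4 against 11%. The promoter rule's 75 became 32 with loess, 32 with bright input, 14 at an FDR of 0.05 and 6 with normexp. The share of all runs at that FDR is not given here. At 200 and 500 kb they were 120 (10.8 against 10.7% of all runs) and 29 (14 against 10.7%). With 1 rat left out they were 42 without C144 (7.04 against 6.53%) to 123 without C141 (20.6 against 20.3%). In 9 of 24 settings the isolated share of these calls lay below that of all runs, among them loess (5.36 against 6.87%), bright input (7.64 against 8.14%), the software's ratio (9.55 against 9.65%) and normexp (1.01 against 3.28%). The 5.21% of probes in isolated runs past the first stage (412) became 0.367% with normexp (29), 9.04% without the narrow arrays (715) and 8.43% without slide 1 (667), and 4.07 to 9.2% with 1 rat left out, the highest without C141. With bright input the share was 4.67% (152 probes), and at 200 and 500 kb it was 5.06 and 5.3%. In the main processing 4.86% of all probes passed, and the shares of all probes under changed processing are not given here. Whether these changes of share are particular to isolated runs can therefore not be told. Stricter filters and distances leave fewer runs. In the fit with the slide as block (the paired analysis), the counts were 33 runs, 76 promoters and 531 probes, with 0.875 as the lowest adjusted limma p.

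The share of isolated runs with higher values in PNS exceeded that of all runs under each setting with a limma fit of single runs. It was 56.6 against 51.9% with bright input and 59.5 against 44.9% with median centring. Within quintiles of input signal the order was mixed, at 84.4 against 78.1% of other runs in the dimmest and 27.1 against 28.1% in the brightest. The GC alternative was not run, and normexp used median in place of mean signals, which the files used here do not hold. Normexp, the authors' table, both removals of arrays and the quintiles were chosen after seeing the data. Dim spots limit many of these values.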
